A study of Caenorhabditis elegans with 2 samples.

Results

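The regions described here are the HPL-2 candidate binding regions that lie beside noncoding RNA genes other than the small RNA classes. They were chosen from the pooled list of 30000 candidates by position alone. The summit of a region, its point of highest enrichment, had to lie inside or within 250 bp of a gene annotated as ncRNA or lincRNA (long intergenic noncoding RNA). Regions within 250 bp of a tRNA, snoRNA, snRNA, miRNA or piRNA gene were left out. The rule found 1468 of the 30000 regions, here called the noncoding-RNA regions. In 454 of these the nearest 5′ end of a coding transcript was at most 500 bp from the summit, and in 1014 it was farther. The small RNA filter had removed 372 of 1840 regions beside these genes.

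The study was chromatin immunoprecipitation and sequencing (ChIP-seq) of Caenorhabditis elegans larvae of the first stage, starved after hatching from bleached mothers, with mixed sexes and whole animals. There was 1 group, in strain YL474, and its 2 libraries are biological replicates 1 and 3. All animals carry lin-35(n745), unc-119(ed3) and the integrated array vrIs64. The array holds unc-119(+) and drives an HPL-2 fusion with GFP and FLAG from the ges-1 promoter, which is active in the intestine. The labels name both the tagged fusion and hpl-2 as the target, so tagged HPL-2 of the array's cells and endogenous HPL-2 of all tissues cannot be told apart. No control library, second genotype or second stage was analysed here, and since no read counts stand in the lists, the depth of either library is unknown. Each library's deposited list also held 30000 candidates, with 1505 noncoding-RNA regions in replicate 1 and 1369 in replicate 3.

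HPL-2 is a worm homologue of heterochromatin protein HP1, a family that binds histone H3 methylated at lysine 9 and is known for gene silencing. LIN-35 is the worm relative of the retinoblastoma protein, and lin-35 and hpl-2 both belong to the synMuv group of repressors. The genes annotated as ncRNA are a mixed class: most have no known role, and a few make RNAs of general machinery, such as the RNA of RNase P. Long noncoding RNAs in worms are often made in 1 tissue or stage, and some, such as tts-1 and rncs-1, are known from starved, dauer or long-lived animals.

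Sequences are shown for 6 of the 7 strongest noncoding-RNA regions, in order of signal, and then for the strongest region of each of tts-1 and rncs-1, which are shown as genes of known role and not for their strength. Each runs 60 bases to either side of the summit, on the plus strand of build ce11 (WBcel235), from the RefSeq copy of that genome. Capitals mark bases inside an annotated noncoding RNA gene of the region.
W06B11.7 (X:5841265-5841385): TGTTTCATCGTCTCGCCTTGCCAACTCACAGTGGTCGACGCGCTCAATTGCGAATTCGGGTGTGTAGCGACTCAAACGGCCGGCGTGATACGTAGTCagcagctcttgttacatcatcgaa
F26F4.14 (III:4899874-4899994): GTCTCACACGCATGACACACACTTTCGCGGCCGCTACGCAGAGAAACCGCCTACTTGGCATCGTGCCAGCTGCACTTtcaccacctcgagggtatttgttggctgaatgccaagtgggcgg
F26D10.23 (IV:17278458-17278578): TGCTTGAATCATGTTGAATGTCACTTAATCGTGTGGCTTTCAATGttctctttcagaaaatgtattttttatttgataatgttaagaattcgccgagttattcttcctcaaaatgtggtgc
F52D10.7 (X:11605989-11606109): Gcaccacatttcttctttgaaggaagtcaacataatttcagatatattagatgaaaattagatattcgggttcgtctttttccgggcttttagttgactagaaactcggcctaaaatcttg
F56F3.10 (III:4475599-4475719): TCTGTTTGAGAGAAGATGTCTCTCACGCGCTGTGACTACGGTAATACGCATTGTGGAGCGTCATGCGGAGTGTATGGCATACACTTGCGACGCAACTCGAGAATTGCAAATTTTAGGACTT
AH9.7 (X:2242921-2243041): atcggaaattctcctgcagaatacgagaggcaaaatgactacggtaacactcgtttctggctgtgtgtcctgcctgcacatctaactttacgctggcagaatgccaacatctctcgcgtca
tts-1 (X:1504794-1504914): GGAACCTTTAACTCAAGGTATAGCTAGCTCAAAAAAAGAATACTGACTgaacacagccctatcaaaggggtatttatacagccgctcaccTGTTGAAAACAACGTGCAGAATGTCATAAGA
rncs-1 (X:1011218-1011338): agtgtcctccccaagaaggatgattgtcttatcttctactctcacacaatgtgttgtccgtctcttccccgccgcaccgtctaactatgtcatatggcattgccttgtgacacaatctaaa
The summits at W06B11.7 and F26F4.14 lie inside short noncoding genes, close to their 5′ ends. The summit at F56F3.10 lies inside that gene, which overlaps F56F3.11. The summit at F26D10.23 lies 16 bp past the gene. The summits beside F52D10.7, AH9.7, tts-1 and rncs-1 lie in DNA before a noncoding gene, and at tts-1 the capitals on the right belong to a second gene, F09E10.14.

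The noncoding-RNA regions were more often strong than candidates in general. The authors' thresholded list holds the strongest pooled regions, all those with a signal (the enrichment value in the deposited lists) of 37.9 or more. The thresholded list held 107 of the 1468 noncoding-RNA regions, or 7.29% (95% Wilson interval 6.07 to 8.73), against 2.86% of all candidates. For each library alone, its top set is here the same number of its strongest regions. The share of noncoding-RNA regions in the library's top set was 7.38% in replicate 1 and 7.30% in replicate 3, a mean of 7.34% ± 0.0501 (SD, n = 2 libraries), while 2.86% of all regions are in such a set by construction. The gap to all candidates was therefore larger than the spread between the libraries. By signal, the median noncoding-RNA region stood at 38.7% of the way down the pooled list, at 40.7% in replicate 1 and at 43.9% in replicate 3, where the median of all candidates is in the middle by construction. Regions are not replicates: 312 of the 1468 overlap another one, and together they form 1308 separate stretches.

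The difference was present both beside and away from protein-coding 5′ ends. Regions away from these ends can still lie inside a coding gene. Within 500 bp of a coding 5′ end, 59 of 454 noncoding-RNA regions were thresholded (13.0%), against 5.38% of all candidates so placed. Over 500 bp away, 48 of 1014 were thresholded (4.73%), against 1.71% of all candidates so placed. In the libraries, the shares beside coding 5′ ends were 13.0% in replicate 1 and 11.4% in replicate 3, against 5.35% and 5.02% of all candidates. Away from them they were 4.82% in replicate 1 and 5.42% in replicate 3, against 1.76% and 1.92%. The noncoding-RNA regions thus had the higher share in either setting, in the pooled list and in both libraries. Near the limit itself, 2 of 25 noncoding-RNA regions over 450 and up to 500 bp from a coding 5′ end were thresholded, and 2 of 33 over 500 and up to 550 bp.

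The share of strong regions was lower farther from the noncoding gene. Of all candidates away from small RNA genes, 55 of 526 with a summit inside a noncoding gene were thresholded (10.5%). Outside the gene, the share was 7.21% up to 100 bp, 4.02% from there to 250 bp, 2.71% to 500 bp, 1.91% to 1000 bp, 1.71% to 2000 bp and 2.48% beyond. In replicate 1 the 3 nearest bands had 10.3%, 7.99% and 3.73%, and in replicate 3 they had 8.54%, 8.59% and 5.07%. Among regions away from coding 5′ ends, the pooled share was 5.54% inside and 5.81% up to 100 bp, against 1.27% beyond 2000 bp. Beside coding 5′ ends it was 21.2% inside, against 4.96% beyond 2000 bp. Mean GC within 100 bp of the summit moved with distance too, from 40.4% inside to 36.1% in the third band and 34.9% beyond 2000 bp, and its part in the result was not tested. Just inside the limit of the rule, over 200 and up to 250 bp, 2 of 163 regions were thresholded, and just outside, over 250 and up to 300 bp, 7 of 175 were.

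**Figure D1:**
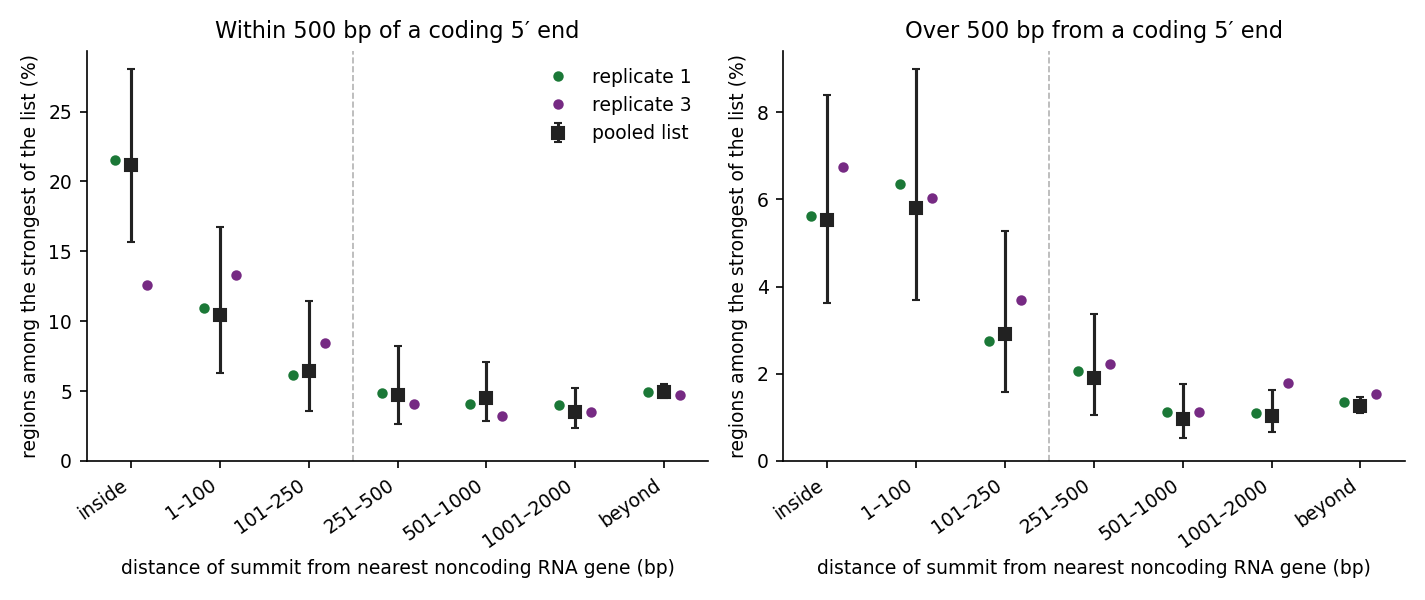
Share of candidate regions in the thresholded list or, for a library, in its top set (%), by the distance of the summit from the nearest noncoding RNA gene (bp). The left panel holds regions within 500 bp of a coding 5′ end and the right panel those farther away, with separate y axes. Squares are the pooled list with 95% Wilson intervals, circles the libraries, and regions left of the dashed line are the noncoding-RNA regions. On the left, regions inside noncoding genes reached 21.2% in the pooled list.

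By position from the 5′ end of the noncoding gene, the thresholded share was highest in the first 100 bp past that end. For a short gene such a position can lie beyond the gene. Taking the nearest noncoding gene of each region, 526 summits were inside it, 561 upstream and 381 downstream. Where genes were equally near, as where they overlap, the one with the nearer 5′ end was taken. This choice draws positions toward 5′ ends. The median gene is 141 nt long and 3′ ends were not compared, so nearness to the 5′ end and lying inside the gene were not separated. The thresholded share was 10.5% inside, 6.06% upstream and 4.72% downstream. A summit within 100 bp of the gene's 5′ end was seen in 581 regions, of which 62 were thresholded (10.7%). In steps of 50 bp from the 5′ end, the share was 13.4% at 0 to 49 bp past it (24 of 179) and 12.8% at 50 to 99 bp (17 of 133). It was 9.46% in the 50 bp just upstream and 2.15% in the farthest 50 bp, 200 to 250 bp upstream. Mean GC moved with the position: 41.3% in the first 50 bp past the 5′ end and 35.2% at 200 to 250 bp upstream. Its part in the result was not tested.

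**Figure D2:**
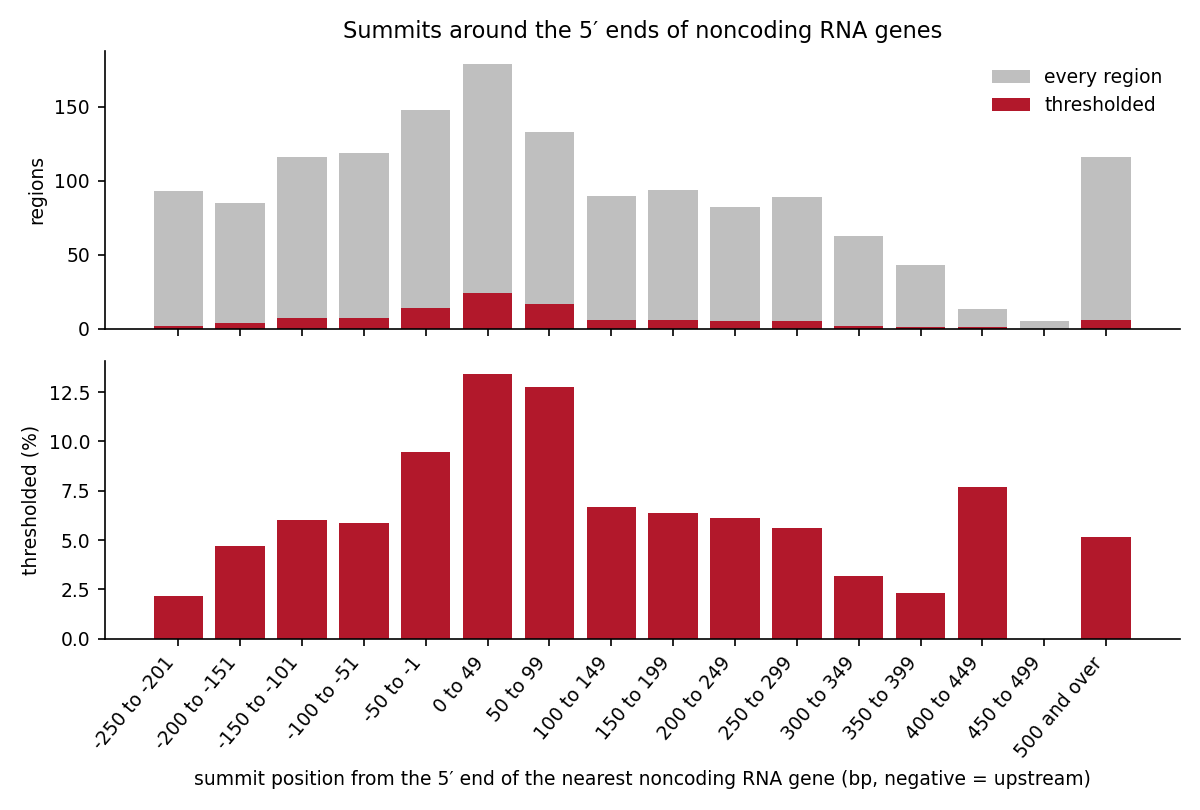
Noncoding-RNA regions by the position of the summit from the 5′ end of the nearest noncoding RNA gene (bp, negative upstream, bins of 50 bp). The upper panel counts every region (grey) and thresholded regions (red), and the lower panel gives the share thresholded (%). Both are highest in the first 50 bp past the 5′ end, with 24 of 179 regions thresholded.

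Regions with more than 1 noncoding gene in reach were more often strong. Of 330 such regions, 38 were thresholded (11.5%), against 69 of 1138 with 1 gene in reach (6.06%). The 241 regions whose 2 genes overlap each other had 29 thresholded, and the 42 with 2 separate genes on the same strand had 5, or 12% of each. The annotation holds 481 pairs of noncoding genes at the same place on opposite strands, which count as 2 genes in reach.

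By position relative to coding genes, 63.0% of the noncoding-RNA regions had a summit between protein-coding genes, 27.8% in an intron and 9.20% in an exon. The shares of all candidates were 43.0%, 33.6% and 23.4%. Between coding genes, 9.19% of the noncoding-RNA regions were thresholded, against 5.0% of all candidates so placed. In introns the shares were 4.90% and 1.47%, and in exons 1.48% and 0.911%. The exon value rests on 2 of 135 noncoding-RNA regions and is near the share of all candidates there.

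Base composition also differed. Within 100 bp of the summit, mean GC was 38.3% in the noncoding-RNA regions, against 35.1% in all candidates, and repeat-masked sequence made up 27.9% against 35.7%. In the libraries, mean GC was 38.5% ± 0.31 in the noncoding-RNA regions and 35% ± 0.77 in all candidates (SD, n = 2 libraries). The 107 thresholded noncoding-RNA regions had 45.3% GC, against 42.2% in the other 750 thresholded regions. The share of strong regions is higher at higher GC among the other candidates too, so the shares were also read at like GC. At 45 to 50% GC, 21.3% of the noncoding-RNA regions were thresholded, against 9.76% of the other candidates. At 40 to 45% the shares were 8.20% and 5.08%, at 35 to 40% they were 4.16% and 2.63%, and at 50% and over they were 21.6% and 17.1%, in the same order. At 30 to 35% they were 1.89% and 1.17%, and under 30% they were 0.488% (1 of 205) and 0.231%. In the pooled list the intervals were apart at 45 to 50% GC and overlapped in every other class. In each library they were apart at 45 to 50% GC too. They were also apart at 35 to 40% and 40 to 45% in replicate 1, and at 30 to 35% in replicate 3. At 45 to 50% GC the shares were 16.9% against 8.82% in replicate 1 and 13.5% against 7.20% in replicate 3. In the libraries the order was the other way in 1 class only, under 30% GC in replicate 1, where 0 of 159 noncoding-RNA regions (interval up to 2.36%) and 0.26% of the other candidates were in the top set. Whether GC takes part in the remaining difference was not tested.

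**Figure D3:**
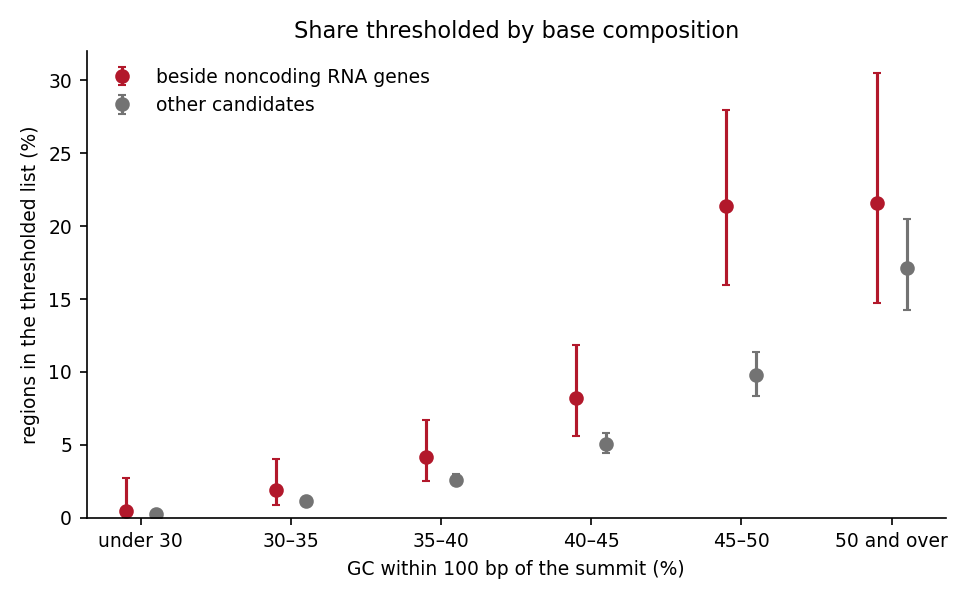
Share of pooled regions in the thresholded list (%) by GC within 100 bp of the summit (%), for the noncoding-RNA regions (red) and the other candidates (grey), with 95% Wilson intervals. The red point lies above the grey one in each GC class, and in this list the gap is widest at 45 to 50% GC, at 21.3% against 9.76%. The intervals overlap in every other class.

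The X chromosome held 440 of the noncoding-RNA regions, or 30%, while it held 18.3% of all candidates. X also carries 32.1% of the noncoding genes of these classes, 2558 of 7958. The share of noncoding genes with a region beside them was 19.3% on X, and between 18.5% (chromosome IV) and 21.3% (chromosome III) on the autosomes. The thresholded share of the noncoding-RNA regions was lowest on X, at 5.45% (24 of 440), and highest on chromosome I, at 12.4% (20 of 161). These are the extremes of 6 chromosomes and are given as a description. All candidates had 2.79% on X and 3.44% on chromosome I. On the autosomes, 31.2% of the noncoding-RNA regions lay in the outer 25% at either end, against 47.7% of all candidates, and 33.7% of the noncoding genes lay there.

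Of the 7958 noncoding genes, 1574 had at least 1 region beside them (19.8%) and 141 had a thresholded one. The lincRNA genes had one more often, 85 of 194 (43.8%), against 1489 of 7764 ncRNA genes (19.2%). They are also longer, with a median of 761 nt against 140 nt. Among genes of both classes, 15.4% of those up to 100 nt had a region, 19.1% from there to 200 nt, 24.6% to 500 nt and 43.3% above 500 nt. Many lincRNA genes are themselves among the genes above 500 nt, so the closeness of these shares is partly built in. Long ncRNA genes were not counted alone, and length was not separated from class. Per gene, 6 of 194 lincRNA genes had a thresholded region (3.09%), against 135 of 7764 ncRNA genes (1.74%). Per region, 7 of 133 regions beside a lincRNA gene were thresholded (5.26%, interval 2.57 to 10.5), against 100 of 1335 beside ncRNA genes alone (7.49%, 6.20 to 9.03). These intervals overlap.

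The strongest noncoding-RNA region lay at W06B11.7 and W06B11.9 on X, a pair of overlapping genes of unknown role. Its pooled signal was 202, the 4th of all 30000 candidates, and it ranked 7th in replicate 1 and 8th in replicate 3. The summit lay 25 bp inside W06B11.7 and 267 bp from a 5′ end of puf-9, which encodes a Pumilio-family RNA-binding protein. The next, at F26F4.14 on III, had a signal of 127 and ranked 40th pooled, 38th in replicate 1 and 39th in replicate 3. Its summit lay 16 bp inside the noncoding gene and 574 bp from the nearest coding 5′ end, that of tag-340. For both, the libraries placed the region within a few ranks of each other.

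The other regions among the 15 strongest within 500 bp of a coding 5′ end are given with a coding neighbour where its role is known. The region at F26D10.23 on IV (signal 121, ranks 45 in replicate 1 and 34 in replicate 3) lay 441 bp from a 5′ end of hsp-1, an Hsp70 chaperone. The region at F56F3.10 on III (signal 112, ranks 48 and 87) lay 259 bp from rps-1, a ribosomal protein gene of the small subunit. The region before AH9.7 and linc-78 on X (signal 108, ranks 57 and 207) lay 363 bp from rpl-11.2, a ribosomal protein gene of the large subunit. The region at C56C10.14 and C56C10.15 on II (signal 96.8, ranks 69 and 145) lay 466 bp from icd-1, a subunit of the nascent polypeptide-associated complex. The region in LLC1.120 on IV (signal 92.8, ranks 92 and 163) lay 233 bp from dld-1, dihydrolipoamide dehydrogenase. These regions lie within reach of both a noncoding and a coding gene, and which of the genes they belong to cannot be told apart from the lists.

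Also near a coding 5′ end were the regions at Y55F3AR.4 on IV (signal 105, ranks 59 in replicate 1 and 138 in replicate 3) and C14F11.14 on X (signal 88.2, ranks 226 and 26). The region in Y65B4BR.10 on chromosome I, 258 bp from a 5′ end of the ubiquitin ligase gene wwp-1, had a signal of 88.0. It ranked 70th in replicate 1 but 2611th in replicate 3. Of the 15 strongest, it alone was not in the top set of both libraries.

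Among regions over 500 bp from a coding 5′ end, those after F26F4.14 were at F52D10.7 on X (signal 113, ranks 54 in replicate 1 and 199 in replicate 3) and VF15C11L.1 on chromosome I (signal 109, ranks 50 and 184). The first lay 630 bp from ftt-2, a 14-3-3 protein gene, and the second 554 bp from ubql-1, a ubiquilin gene. The region near W01H2.8 on X (signal 98.4, ranks 95 and 51) lay 4619 bp from the nearest coding 5′ end and 175 bp past the noncoding gene. The region in T23F11.10 on III (signal 95.6, ranks 93 and 54) lay 964 bp from ppm-2, a protein phosphatase gene. The others by this order were tts-1 (92.1), H34C03.18 on IV (83), W06H8.16 on V (80.8), T28F4.7 on chromosome I (79.3) and C30E1.9 on X (78.2). Each of the 10 was in the top set of both libraries.

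A gene known from dauer larvae was also among the strongest. tts-1 (X:1504131-1504841, minus strand) makes a long noncoding RNA that is abundant in dauers and long-lived daf-2 mutants and is found with ribosomes. It had 4 regions, 3 of them thresholded, with pooled signals of 92.1, 48, 46.5 and 20.3. The strongest had its summit 13 bp upstream of the annotated 5′ end and 2064 bp from the nearest coding 5′ end. It ranked 153rd in replicate 1 and 21st in replicate 3, so it was strong in both and relatively stronger in replicate 3. The region at 898 bp past the 5′ end, beyond the gene, ranked 1467th in replicate 1 and 112th in replicate 3. Neighbouring regions can overlap the same region of a library, as the first and second tts-1 regions do, and are then not separate observations.

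rncs-1 (X:1011501-1012347, plus strand), whose RNA rises in starved worms, is made in intestine and hypodermis and inhibits Dicer, had 1 region. Its signal was 45.8, pooled rank 551, with the summit 223 bp upstream of the gene and 6278 bp from any coding 5′ end. It ranked 517th in replicate 1 and 3302nd in replicate 3, so it was in the top set of replicate 1 and not in that of replicate 3.

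None of the 9 regions beside RNA genes of general machinery was thresholded, where 7.29% of all noncoding-RNA regions were, a share under which fewer than 1 in 9 would be. In signal, 8 of the 9 (14.1 to 34.5) were above the median noncoding-RNA region, at 12.8. rpr-1, the RNA of RNase P, had a region with a signal of 34.5 and a summit 52 bp upstream, under the limit of 37.9. mrpr-1, the RNA of RNase MRP, had regions of 25.1 and 8.65. The signal recognition particle RNA genes had 33.5 and 26.3 at srpr-2.2, 19.7 at srpr-1.2, 18.2 and 14.1 at srpr-2.1 and 17.7 at srpr-1.1. Of the other named genes looked for, srpr-3, tts-2, the developmental timing gene lep-5 and the Y RNA gene yrn-1 had none. For yrn-1 a candidate with a signal of 10.5 lay 285 bp away, just outside the rule.

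A few noncoding genes held several regions. There were 19 with 3 or more, 10 lincRNA and 9 ncRNA genes, with lengths from 105 to 14770 nt and a median of 2525 nt, and 5 of them had a thresholded region. C30E1.9 on X, annotated over 14770 nt, had 11. The strongest, with a signal of 78.2, lay 182 bp upstream of the 5′ end and ranked 129th in replicate 1 and 91st in replicate 3. The only other thresholded one, with a signal of 43.5, lay 1037 bp into the gene and ranked 390th and 2294th. The other 9 had signals of 8.43 to 33.7 and lay toward either end of the gene, with no region between 1772 and 10369 bp from the 5′ end. linc-91 on chromosome I had 5 regions, 2 of them thresholded (43.4 and 40.5), and linc-129 on III had 5 with 1 thresholded (39.8). The 5 regions at linc-90 on III (11.3 to 33.2) and W05H9.3 on X (12.4 to 31.3), and the 4 at linc-22 on X (18.3 to 24.1), held none.

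The 5 strongest regions beside lincRNA genes began with linc-78, which shares its region with AH9.7. The next was inside linc-128 on V (signal 68.8, ranks 287 in replicate 1 and 214 in replicate 3), 581 bp into the gene and 4784 bp from a 5′ end of cmd-1, the calmodulin gene. linc-16 on II (49.6, ranks 280 and 1709), linc-91 (43.4, ranks 1228 and 248) and linc-72 on II (41.7, ranks 543 and 1898) were each in the top set of 1 library and not the other.

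The libraries agreed more often on the noncoding-RNA regions than on candidates in general. A region of both library lists overlapped 736 of the 1468 (50.1%), against 37.9% of all candidates. A region of both top sets overlapped 68 of them (4.63%, 3.67 to 5.83), against 1.65% of all candidates. Over the 736 regions the signals of the libraries had a Spearman rho of 0.530, and over the 11381 such candidates of the whole list 0.399, as descriptions over regions that share the libraries. Among thresholded regions the shares were close: 51 of the 107 thresholded noncoding-RNA regions (47.7%) and 46.6% of all thresholded regions were in both top sets. Of the 107, 96 were in the top set of replicate 1 and 61 in that of replicate 3.

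**Figure D4:**
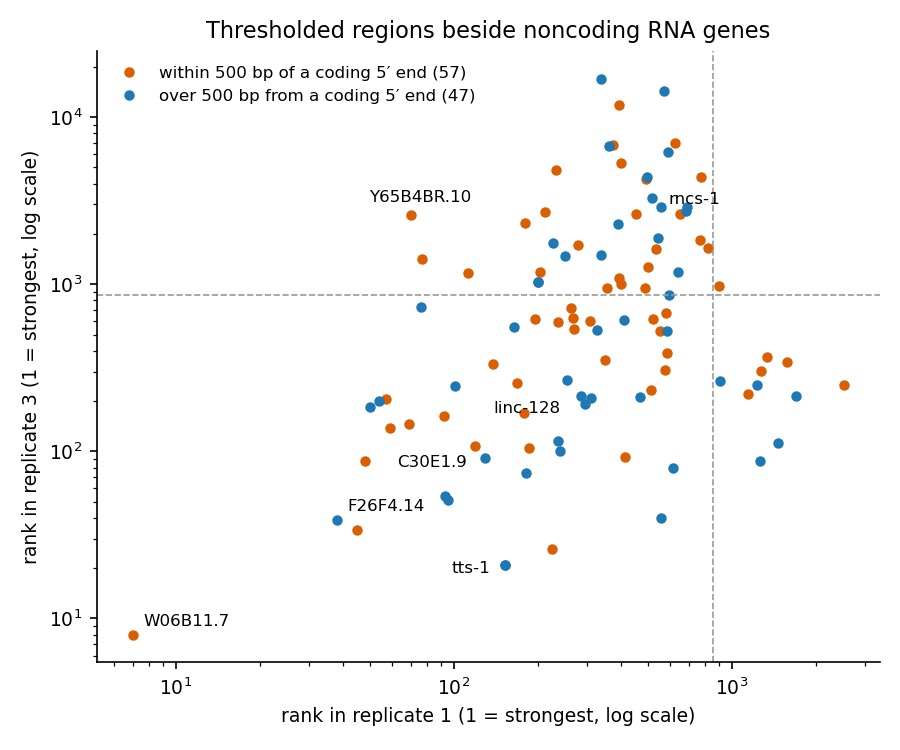
Ranks in replicate 1 (x) and replicate 3 (y), both log scales with 1 the strongest, of the 104 thresholded noncoding-RNA regions that overlap a candidate of both libraries. Dashed lines mark the limits of the top sets, and colours separate the 57 regions within 500 bp of a coding 5′ end from the 47 farther away. Most points lie left of the vertical line, while many lie above the horizontal one: 96 of the 107 were in the top set of replicate 1 and 61 in that of replicate 3.

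Sequence words were searched within 100 bp of the summit, on both strands. The GAGA repeat, the GC box and, by a small margin, the E2F-like words given below were more frequent in the noncoding-RNA regions than in all candidates. This held in the pooled list and in both libraries. The word GAGAGAGA, a GAGA repeat, was in 5.99% of the noncoding-RNA regions, against 2.79% of all candidates, with 6.38% against 2.80% in replicate 1 and 5.41% against 2.32% in replicate 3. Among thresholded regions over 500 bp from coding 5′ ends it was in 11 of the 48 noncoding-RNA regions (22.9%, interval 13.3 to 36.5), against 14.1% of the other 306. In the libraries' own top sets the shares were 22.0% against 12.3% in replicate 1 and 21.6% against 9.71% in replicate 3. The E-box CACGTG was in 4.70% of the noncoding-RNA regions, against 4.27% of all candidates, and in replicate 1 the order was the other way (3.99% against 4.29%). Among the thresholded regions away from coding 5′ ends it was in 9 of the 48 (18.8%), against 10.5%, while beside them it was in 3.39%, against 6.98%. The GC box GGGCGG was in 5.38% of the noncoding-RNA regions, against 3.84% of all candidates, with 5.51% against 3.84% in replicate 1 and 7.52% against 3.77% in replicate 3. It was in 7 of the 48 (14.6%), against 6.54%, and beside coding 5′ ends in 10.2%, against 12%. Mean GC of the 48 was 46.1%, against 42.8% in the other 306, and its part in these differences was not tested.

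Matches in some of the strongest of these 48 regions show the words in place, with 25 bases on either side of a GAGA repeat and 20 on either side of an E-box, on the plus strand of ce11 (RefSeq copy). Capitals mark the searched word, which reads TCTCTCTC where it lies on the other strand.
W01H2.8 (X:4223029-4223086): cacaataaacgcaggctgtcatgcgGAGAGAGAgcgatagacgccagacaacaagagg
W06H8.16 (V:6224681-6224738): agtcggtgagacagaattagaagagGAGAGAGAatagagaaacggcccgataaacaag
T14G8.5 (X:12872426-12872483): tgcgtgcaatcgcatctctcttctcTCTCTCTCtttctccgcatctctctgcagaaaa
C17H12.32 (IV:6785997-6786054): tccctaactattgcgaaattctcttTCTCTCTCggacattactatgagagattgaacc
E-box at W06H8.16 (V:6224553-6224598): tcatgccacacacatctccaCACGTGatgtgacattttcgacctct
E-box at T01C8.9 (X:16796935-16796980): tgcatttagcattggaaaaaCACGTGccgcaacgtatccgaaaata
E-box at R03E9.10 (X:6744017-6744062): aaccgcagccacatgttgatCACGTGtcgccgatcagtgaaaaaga
E-box at H37A05.6 (V:13658741-13658786): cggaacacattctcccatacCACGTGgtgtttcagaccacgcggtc
The region near W06H8.16, with a signal of 80.8, holds both words. The repeat of T14G8.5 lies in a longer pyrimidine stretch. A match is a description of the letters and says nothing of a bound factor.

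The CHR word, the T run and TATAAA were less frequent in the noncoding-RNA regions than in all candidates, in the pooled list and in both libraries. These words are rich in A and T, and the part of the difference in mean GC (38.3% against 35.1%) was not tested. The CHR word TTTGAA was in 42.0% of the noncoding-RNA regions, against 50.3% of all candidates. In the 48 strong regions away from coding 5′ ends it was in 14.6% (7.25 to 27.2), against 26.1% (21.5 to 31.3) of the other 306. A run of TTTTTTTT was in 19.2%, against 25.1%. Among those strong regions the run was in 14.6%, against 10.1%, with the order the other way in the top sets of both libraries. TATAAA was in 19.3%, against 21.5%, with 18.3% against 20.7% in replicate 1 and 18% against 23.1% in replicate 3. The word TGATAA, which GATA factors read, was in 20.8% against 21.3%, the AP-1 word TGANTCA in 5.79% against 6.04%, and the E2F-like words in 3.68% against 3.51%. The E2F-like words were TTTCCCGC, TTTGGCGC, TTTCGCGC and TTTGCCGC, with 3.99% against 3.49% in replicate 1 and 3.87% against 3.26% in replicate 3. Among thresholded regions the order was the other way, with 5 of the 107 (4.67%, interval 2.01 to 10.5) against 7.87% of the other 750. The thresholded shares were 5.08% against 10.6% beside coding 5′ ends, and 4.17% against 3.92% away from them. GTTCNANNC, the B box of tRNA genes, was in 6.27% of the noncoding-RNA regions, against 7.37% of all candidates. Among thresholded regions it was in 2 of the 107 (1.87%, interval 0.514 to 6.56), against 8.93% of the other 750, and away from coding 5′ ends in 4.17% against 14.1%. The rule itself bears on this word, since it removes regions beside tRNA genes.

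**Figure D5:**
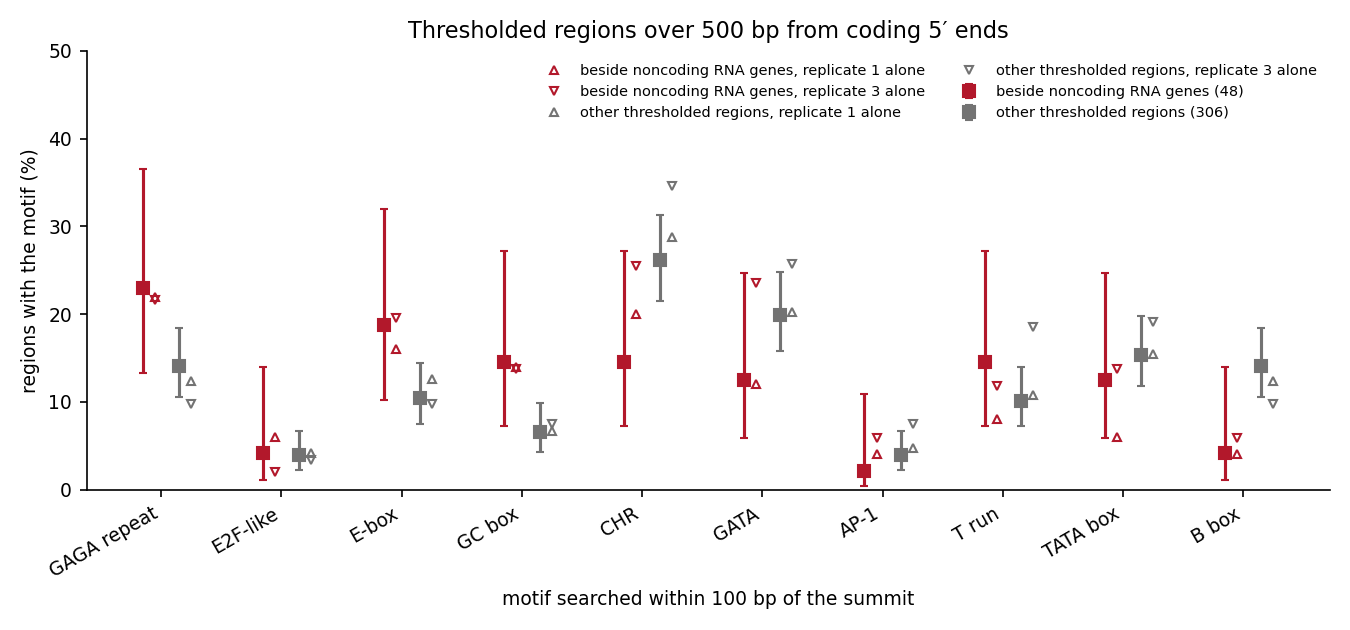
Share of thresholded regions over 500 bp from coding 5′ ends that hold each searched word within 100 bp of the summit (%). Red squares are the 48 noncoding-RNA regions and grey squares the other 306, with 95% Wilson intervals, and triangles give the same share in the top set of each library. The GAGA repeat is at 22.9% against 14.1%, and the red and grey intervals overlap there.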

How the data were processed

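HPL-2 ChIP-seq regions of starved first-stage larvae were analysed from the deposited lists on build ce11. The authors deposited a list of 30000 candidates for each library and for both pooled, and a thresholded list, with a signal and a −log10 q-value per region. Per the deposited file listings, each library's candidates came from its own alignments and 1 control file. For the aligner, the peak caller and the threshold settings, the sources used here give no name or version. The 4 deposited lists on the older build were not used.

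Summits were compared with Ensembl release 115 genes (WBcel235), and bases were read from the RefSeq copy. Regions were ranked by signal within a list. A pooled region took the strongest library region that shared at least 1 bp. Wilson intervals are at 95% and cover counting error only. No test was made: shares stand beside those of all candidates and of each library. Regions named are the 15 strongest, the 10 strongest over 500 bp from coding 5′ ends, the 5 strongest beside lincRNA genes, those at listed genes of known role, and genes with 3 or more. Members and lists were chosen with earlier results of these data known. Alternatives were other distances, gene classes, a stricter list, single libraries, 1 region per gene, wider sequence and stricter overlap. Python 3.11.15 with numpy 2.4.6, pandas 2.3.3, scipy 1.17.1 and matplotlib 3.10.9 was used, and helper functions were tested on simulated data.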

Additional observations from a re-analysis of the deposited data

How the results depend on the processing

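Of 94 alternative values, 64 moved by more than the limit set for them, and a turn of order was not scored. The limit was the spread between the libraries, which is small for shares. For the count of regions it was a fold limit, and for the share in both top sets the Wilson interval set it. Among the words, the order against all candidates turned for the E-box in replicate 1. It also turned for AP-1 in both libraries and within 200 bp, and for GATA in replicate 3 and within 200 bp. Within 100 bp of the noncoding gene the rule found 970 regions and within 500 bp 2281, with 8.97% and 5.66% thresholded, a median place in the list of 35.5% and 43.8%, and mean GC of 39.5% and 37.0%. At 500 bp, 30.2% lay at coding 5′ ends. With ncRNA genes alone the thresholded share was 7.53%, with 32.7% at coding 5′ ends. The 133 regions of lincRNA genes alone had 5.26% thresholded, 12.8% at coding 5′ ends, a median place of 45.8%, 35.5% GC and 2.26% among the strongest of both libraries. With small RNA neighbours kept in, the values were 8.70% thresholded, 29.3% at coding 5′ ends, a median place of 33.8% and 39.0% GC. With 1 region per noncoding gene they were 8.24%, 32.5% and 36.1% for the first 3.

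A coding distance of 250 bp put 17.6% of the regions at coding 5′ ends, with 5.95% thresholded among those away, against 2.12% of all candidates so placed. A distance of 1000 bp put 46.7% there, with 10.8% thresholded at and 4.22% away, against 4.12% and 1.67%. A stricter list of the stronger part of the thresholded regions held 4.22% of the noncoding-RNA regions (7.71% at coding 5′ ends, 2.66% away), against 1.43% (2.71% and 0.848%) of all candidates, and 2.66% were in such a stricter set of both libraries, against 0.833%.

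Reading sequence within 200 bp gave 37.9% GC, against 34.9% in all candidates, and more matches of each word: GAGA 11.2% against 4.82%, E2F-like 7.43% against 6.46%, E-box 8.11% against 7.56%, GC box 10.8% against 7.15%, CHR 65.2% against 74.2%, GATA 36.9% against 36.8%, AP-1 13.0% against 12%, T run 35.4% against 42.5%, TATA box 33.7% against 38.8% and B box 12.8% against 14%.

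Leaving out either library gave 1369 to 1505 regions, with 7.30% to 7.38% in the top set of the library that was kept. At coding 5′ ends lay 31.1% to 31.3%. The top set held 11.4% to 13.0% of the regions there and 4.82% to 5.42% of those away. The median place was 40.7% to 43.9%, GC was 38.3% to 38.7% and masked sequence was 26.2% to 28.3%. The word shares ranged from 5.41% to 6.38% for GAGA, 3.87% to 3.99% for E2F-like, 3.99% to 4.38% for the E-box, 5.51% to 7.52% for the GC box, 40.1% to 41.9% for CHR, 20.2% to 21.8% for GATA, 6.31% to 6.5% for AP-1, 17.9% to 19.4% for the T run, 18% to 18.3% for the TATA box and 5.62% to 6.38% for the B box. No paired analysis was possible because all samples are of 1 group. The causes of these shifts were not tested. With 2 libraries and no control library analysed here, a region strong for reasons other than HPL-2 cannot be told apart.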

Other observations

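A palindrome, TGGC and GCCA with 5 bases between them, was seen in the printed sequences of F26F4.14 and AH9.7 and then counted within 100 bp of every summit, so it was chosen after the data were seen. Inverted repeats of this kind are the class of site known for nuclear factor I proteins. It was in 8 of the 107 thresholded noncoding-RNA regions (7.48%, interval 3.84 to 14.1), against 20 of the other 750 thresholded regions (2.67%, 1.73 to 4.08). F26F4.14 and AH9.7 are among the 8, so the share and its interval rest partly on the sequences that prompted the count. The palindrome was in 0.514% of the noncoding-RNA regions below the threshold, against 0.580% of all candidates. The libraries differed: in the top set of each, the shares were 8.11% against 2.55% in replicate 1, and 2 of 100 against 1.59% in replicate 3. The 5 strongest of the 8 regions are shown on the plus strand of ce11, from the RefSeq copy of WBcel235, with the 2 arms in capitals. A second match in the F26F4.14 region, within its longer sequence printed above, is not shown here.
F26F4.14 (III:4899917-4899953): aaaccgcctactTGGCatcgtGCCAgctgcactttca
AH9.7 (X:2243002-2243038): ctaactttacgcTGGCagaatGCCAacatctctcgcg
C56C10.14 (II:6589036-6589072): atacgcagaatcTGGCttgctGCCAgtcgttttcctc
Y38F2AR.16 (IV:2389067-2389103): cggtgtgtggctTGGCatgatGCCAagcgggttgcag
Y82E9BR.27 (III:1418824-1418860): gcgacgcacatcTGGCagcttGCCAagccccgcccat
The regions of Y38F2AR.16, near trap-3 (signal 79.1), and Y82E9BR.27 (signal 62.2) ranked 99th and 180th in replicate 1. In replicate 3 the first overlapped no candidate and the second ranked 2334th.

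The word TATAAA was also counted before noncoding genes, after the tts-1 sequence was seen, and tts-1 is itself among the genes counted. It had to lie wholly within the 20 to 40 bases before the annotated 5′ end, on the gene's own strand. It was in 3 of 141 noncoding genes with a thresholded region (2.13%, interval 0.726 to 6.07), against 1.04% of all 7958 noncoding genes. The interval covers the share of all noncoding genes. It ended 25 bases before the 5′ end of tts-1, 26 before that of C30E1.9 and 21 before that of F31F7.5. The searched window itself limits these places. The sequences run from 45 bases before to 10 after the 5′ end on the gene's strand (ce11, RefSeq copy), with the word in capitals.
C30E1.9 (X:16929869-16929924): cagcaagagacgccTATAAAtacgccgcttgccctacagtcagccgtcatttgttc
F31F7.5 (V:6267744-6267799): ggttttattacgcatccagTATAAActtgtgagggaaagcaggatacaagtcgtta
tts-1 (X:1504831-1504886): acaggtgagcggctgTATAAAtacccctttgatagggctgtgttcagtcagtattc
Among the genes with 3 or more regions, tts-1 had 3 thresholded ones and C30E1.9 had 2, as did linc-91, and the others had at most 1.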
